A study of Mus musculus with 2 samples.

Results

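The nuclear genes for respiratory complexes II to V and for cytochrome c were described in mouse kidney after an adenine diet given with or without HMPA. The members were the genes whose name on the array was Sdha to Sdhd, Cyc1 or Cycs, or began with Uqcr, with Atp5, or with Cox followed by a digit from 4 to 8 and a letter. The array held 49 such genes, of 26571 gene names in all, on 67 probes. Of these 49 genes, 46 were measured, meaning that at least 1 of their probes stood clear of background on both arrays for 1 condition. Cox4i2, Cox7b2 and Cox8c were not well above background in either condition and have no ratio here.

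Complexes II, III and IV sit in the inner mitochondrial membrane and pass electrons from succinate and from reduced coenzyme Q to oxygen, and complex V, the ATP synthase, uses the proton gradient that results. Cytochrome c, the product of Cycs, carries electrons from complex III to complex IV. In the kidney the tubules, above all the proximal tubule and the thick ascending limb, are rich in mitochondria, because salt and solute reabsorption consumes ATP. The subunits are encoded partly in the nucleus and partly in the mitochondrial genome, and the members are all nuclear.

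Kidney RNA came from male CD-1 mice, aged 7 weeks at the outset, on AIN-93G chow containing 0.2% adenine by weight for 1 week, either alone (the adenine group) or with 2% HMPA by weight (the HMPA group). HMPA is a phenolic acid, 3-(4-hydroxy-3-methoxyphenyl)propionic acid, and adenine feeding is a model of chronic kidney disease. The labels' titles give 12 weeks of age and name 5 mice, without saying whether their RNA was pooled. Each of 2 arrays received both RNAs. On array 1 the adenine RNA carried Cy3 and the HMPA RNA Cy5, and on array 2 the dyes were swapped. Every group had eaten adenine, so the ratios do not show what adenine changed. The labels do not name separate animals for the arrays, which were read as repeat hybridisations of 1 RNA sample per condition with dyes exchanged, so there is no p-value and no measure of the spread between animals. All ratios are log2 of HMPA over adenine alone, and ± gives how far either array lies from the mean of both.

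Feature Extraction, the scanner software, marked no member spot as unreliable on either array, and no spot of the arrays was saturated. Between 57.1% and 67.1% of probes were well above background in each condition and array. Proximal tubule markers, among them the phosphate transporter Slc34a1 and the endocytic receptor Lrp2, were above background in all 4 channels for 14 of 14 measured genes.

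The probe sequences that gave several of the ratios described in the following paragraphs are printed first, because their genes were among those higher by 2-fold or more on the mean. Each probe has a frame without a stop codon over its length, which by itself does not place it in coding sequence. They are the strands printed on the array, 5′ to 3′, with positions on mouse build mm9 as the files give them. Annotation of that build was not used here, so exons and UTRs are not assigned. The Sdhb probe spans chr4:140522514-140527081, or 4568 bases for its 60 letters, so it joins separate genomic blocks, and so does the Cox7a1 probe at chr7:30970337-30970948, which spans 612 bases. The Cyc1 probe lies at chr15:76175938-76175997 and the Cycs probe at chr6:50515255-50515314 on the minus strand.
Sdhb: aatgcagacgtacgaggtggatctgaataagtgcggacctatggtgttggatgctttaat
Cyc1: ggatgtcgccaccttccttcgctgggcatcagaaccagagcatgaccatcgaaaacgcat
Cycs: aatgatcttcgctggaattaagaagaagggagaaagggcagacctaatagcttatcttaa
Cox7a1: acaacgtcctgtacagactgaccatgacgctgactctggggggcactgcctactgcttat

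As a group, the respiratory genes were higher with HMPA. The median ratio of the 46 measured members was 0.56, with 0.78 on array 1 and 0.50 on array 2, while the median over all 16698 measured genes was -0.04. By a rule of size (2-fold or more on the mean, with 1.5-fold or more on each array and the same sign), 7 of 46 members were higher, or 15.2%, against 6.64% of all measured genes. No member was lower by that rule, which 7.72% of all genes met. A milder rule (at least 1.5-fold on the mean and 1.2-fold on each array) was met upward by 22 members, or 47.8%, against 13.7% of all genes. It was met downward by 0 members, against 16.3% of all genes. The 7 genes of the 2-fold rule were Cox7a1, Sdha, Cyc1, Sdhb, Uqcrfs1, Atp5g3 and Cycs. That count rested on both arrays: array 2 alone gave 3 (Cox7a1, Cyc1 and Sdha) and array 1 alone 13. The deposited Feature Extraction ratio gave 12 members by the 2-fold rule and 35 by the milder one, with 12.23% and 22.55% of all genes. Of the members that met the milder rule, Atp5o was nearest its limit at 0.61 ± 0.03, and Atp5md at 0.56 ± 0.19 was the nearest outside it.

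The shift was broad and shallow. A mean above 0 was found for 43 of 46 members, and 36 were above 0 on both arrays. Over all 16698 genes the counts were 7701 and 5990. The 3 members with a mean below 0 were Cox7a2l, Cox6b2 and Cox8b. In bulk tissue, fewer cells of a type and less RNA per cell cannot be told apart, so these ratios hold for RNA of the whole kidney.

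**Figure D1:**
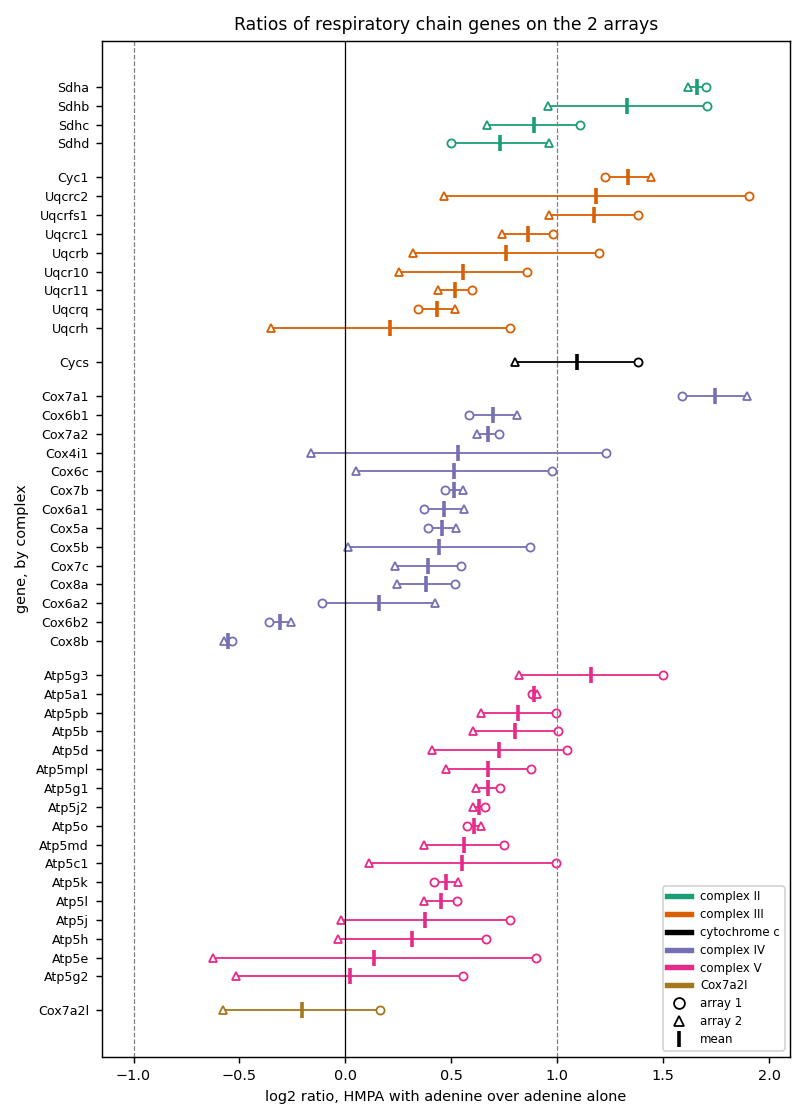
Log2 ratio of HMPA over adenine alone for the 46 measured members, ordered within each complex by the mean; circles are array 1, triangles array 2 and ticks their mean, and dashed lines mark 2-fold. Complex II lies to the right of 0 on both arrays for 4 of 4 genes, and Cox6b2 and Cox8b lie to the left on both.

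Complex II, or succinate dehydrogenase, belongs to both the citrate cycle and the respiratory chain, and it was the complex with the highest median, 1.11 over 4 genes (1.40 on array 1 and 0.96 on array 2). All 4 of its genes met the 1.5-fold rule and Sdha and Sdhb met the 2-fold rule. Sdha encodes the flavoprotein that oxidises succinate. Its normalised signal was 559 with adenine and 1821 with HMPA on array 1, and 617 and 1889 on array 2. The ratios were thus nearly equal on both arrays, at 1.70 and 1.61, for a mean of 1.66 ± 0.04 (3.16-fold). A second Sdha probe gave 1.32, and a dim one gave 0.02. Sdhb encodes the iron-sulfur subunit that takes the electrons onward. Its signal was 2346 with adenine and 7645 with HMPA on array 1, against 3243 and 6291 on array 2. The HMPA channel was the brighter on both arrays, but by 1.70 on array 1 and by 0.96 on array 2, giving 1.33 ± 0.37. The membrane anchors that bind coenzyme Q were lower than these catalytic subunits in mean ratio. Sdhc measured 1.11 and 0.67 on the arrays (0.89 ± 0.22). Sdhd measured 0.50 and 0.96 (0.73 ± 0.23), with array 2 the higher, opposite to Sdhb and Sdhc. On array 2 alone Sdhb and Sdhd were equal to the second decimal, so the order of catalytic subunits over anchors did not hold there.

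Complex III passes electrons from coenzyme Q to cytochrome c. Its median was 0.76 over 9 genes (0.98 and 0.46 on the arrays), and 5 of 9 met the 1.5-fold rule. Cyc1, the cytochrome c1 subunit that hands electrons on, had a signal of 3334 with adenine and 7805 with HMPA on array 1, and 3871 and 10517 on array 2. Both arrays gave a ratio over 2-fold, at 1.23 and 1.44 (1.33 ± 0.11). Uqcrfs1 encodes the Rieske iron-sulfur protein. Its signal went from 5882 to 15315 on array 1 and from 6621 to 12892 on array 2 between adenine and HMPA, or 1.38 and 0.96 (1.17 ± 0.21). Uqcrc2, a core protein of the matrix side, had a mean of 1.18 but did not meet the 2-fold rule. It was 1.91 on array 1 and 0.46 on array 2, a distance of 0.72 to either side of the mean. Its partner Uqcrc1 was steadier at 0.98 and 0.74 (0.86 ± 0.12), and a second Uqcrc1 probe gave 0.66.

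The small subunits of complex III had lower mean ratios than Cyc1, Uqcrfs1, Uqcrc1 and Uqcrc2. Uqcrb, which lies next to cytochrome b, measured 1.2 and 0.32 (0.76 ± 0.44). Uqcr10 and Uqcr11 had means of 0.56 and 0.52, and Uqcrq 0.43. Uqcrh, the acidic hinge protein beside cytochrome c1, was lowest and disagreed between the arrays, at 0.78 and -0.35 (0.21 ± 0.57). A second Uqcrh probe gave 0.66 and 0.41. The means of Cyc1, Uqcrfs1, Uqcrc1 and Uqcrc2 ran from 0.86 to 1.33 and those of the other 5 subunits from 0.21 to 0.76, so the sets did not overlap. This split was drawn after the values were seen. The sets overlapped on each array alone and when a gene was given the mean of its probes.

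Cytochrome c itself was higher with HMPA by the 2-fold rule. The brightest of 3 Cycs probes had signals of 11190 and 29151 in adenine and HMPA on array 1, and 15146 and 26374 on array 2. That gave 1.38 and 0.80, a mean of 1.09 ± 0.29. The other probes of the gene gave 1.77 and 1.72, so the bright probe was the lowest of the 3, though these other probes overlap each other in position.

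Complex IV, cytochrome c oxidase, reduces oxygen, and its catalytic core is mitochondrially encoded while the members are the surrounding nuclear subunits. It had the lowest median of the complexes, 0.46 over 14 measured genes of 17 (0.53 and 0.33 on the arrays). Cox7a1 alone met the 2-fold rule, and 3 met the 1.5-fold rule, with Cox6b1 and Cox7a2. The 10 isoforms used in most tissues ran from 0.38 to 0.70 with a median of 0.49. Cox6b1 led them at 0.58 and 0.81 (0.70 ± 0.11), Cox7a2 followed at 0.67 ± 0.05, and Cox7c and Cox8a were lowest at 0.39 ± 0.16 and 0.38 ± 0.14. Cox4i1, a regulatory subunit, measured 1.23 on array 1 and -0.16 on array 2, so its mean of 0.53 describes neither array. Cox6c and Cox5b showed the same array difference, at 0.98 and 0.05 for Cox6c and at 0.87 and 0.01 for Cox5b. Cox7b (0.51 ± 0.04), Cox6a1 (0.46 ± 0.09) and Cox5a (0.46 ± 0.06) varied little between arrays.

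Of 7 complex IV isoforms known from heart, skeletal muscle, lung or testis, 4 were measured. Cox7a1 is the isoform of subunit 7a best known from heart and skeletal muscle. Its signal was 874 with adenine and 2625 with HMPA on array 1, and 838 and 3123 on array 2. Both arrays gave about the same ratio, 1.59 and 1.90, and the mean of 1.74 ± 0.16 (3.35-fold) was the highest of all members. Cox7a2, the isoform of most tissues, was at 0.67, which left Cox7a1 ahead by 0.86 on array 1 and 1.28 on array 2. The other muscle-type isoforms, Cox8b and Cox6a2, had lower mean ratios than their common counterparts. Cox8b was at -0.54 and -0.57 (-0.56 ± 0.02), but was well above background with HMPA on 1 of 2 arrays. The size of this ratio was set by the background correction: it was -0.86 without correction, -1.002 with a normexp offset of 16 and -2.40 with the Feature Extraction ratio, and in the last pair Cox8b met the 2-fold rule downward. Cox8b was below Cox8a on both arrays. Cox6a2 was at -0.11 and 0.42 (0.16 ± 0.27), below Cox6a1 by 0.48 and 0.14, and its mean turned to -0.14 under median centring of the arrays in place of loess. Cox6b2, the isoform of testis, was at -0.36 and -0.26 (-0.31 ± 0.05), below Cox6b1 by 0.94 and 1.07. Cox7a2l, which takes part in joining complexes III and IV into supercomplexes and was kept out of the complex IV median, measured 0.16 and -0.58 (-0.21 ± 0.37).

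Cox7a1 and Cox8b are also known from striated muscle and brown fat, whose markers were mostly dim or lower with HMPA. Of 8 striated muscle markers, Ckm, Myh4, Myh7, Tnnt3, Actn3 and Mb were not well above background, and the measured ones, Acta1 and Tnni2, were at -0.74 and -0.64. Their summed signal was 367 and 339 with adenine and 218 and 222 with HMPA. Of 7 brown fat markers, 4 were measured: Cidea was at -1.20, Dio2 at -0.90, and Ppargc1a, which the kidney also expresses, at 0.62. The uncoupling protein Ucp1 was at -0.54, but was well above background in only 2 of 4 channels. The brown fat sums were 1751 and 1510 with adenine and 2152 and 1991 with HMPA, Ppargc1a included. White fat markers had a median of -0.99 over 7 measured genes. Testis germ cell markers had a median of -0.04 over 5.

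Complex V makes ATP in a rotary head, F1, driven by a ring of c subunits in the membrane. All 17 of its genes were measured and had a mean above 0, with a median of 0.61 (0.77 and 0.47 on the arrays). Only Atp5g3 met the 2-fold rule, while 9 of 17 met the 1.5-fold rule. Atp5a1 encodes the alpha subunit of the F1 head. It had signals of 13471 and 24814 in adenine and HMPA on array 1, and of 16198 and 30269 on array 2. The arrays agreed to within 0.02, at 0.88 and 0.90 (0.89 ± 0.01), and a second probe gave 1.00. The catalytic beta subunit, Atp5b, was at 1.00 and 0.60 (0.80 ± 0.20). The delta subunit Atp5d was at 1.05 and 0.41 (0.73 ± 0.32). The gamma shaft Atp5c1 was at 0.99 and 0.11, and the epsilon subunit Atp5e changed sign between the arrays, at 0.90 and -0.63 (0.14 ± 0.76). The beta and alpha subunits, which form the catalytic hexamer, were thus above 0 on both arrays, as were Atp5d and Atp5c1, and Atp5e was the 1 F1 gene that was not.

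The 4 kept probes of Atp5b disagreed in sign. The brightest gave 0.80 and the next, printed here as Atp5b a, gave 1.21 on the mean of both arrays. Atp5b b gave 1.14 and 1.39, and a dim probe that was named through the symbol, not an accession, gave -0.00. Atp5b a lies at chr10:127522569-127522628 and Atp5b b at chr10:127521478-127522156, spanning 679 bases. Both printed probes have a frame without a stop codon, and both had higher ratios than the brightest probe.
Atp5b a: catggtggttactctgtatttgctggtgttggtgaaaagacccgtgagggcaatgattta
Atp5b b: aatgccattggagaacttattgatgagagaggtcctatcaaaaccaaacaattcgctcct

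Several members had more than 1 probe. Of 10 members with more than 1 kept probe of log2 signal 9 or above, the brightest probe was the lowest in 7 and the highest in 3. Over all 992 such genes the brightest was the lowest in 64.6%, a share close to that of the members. The probes of 2 of 11 members with more than 1 kept probe disagreed in sign, against 27.8% of 6031 such genes in all. These were Atp5b and Cox7c, and in both the disagreeing probe was dim. Cox7c gave 0.39 with its bright probe and -0.32 with the dim one.

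The 3 genes for the c subunit encode the same mature protein behind different targeting sequences. Atp5g3 had signals of 14668 and 41390 in adenine and HMPA on array 1, and of 18765 and 33068 on array 2, or 1.5 and 0.82 (1.16 ± 0.34). Atp5g1 was at 0.73 and 0.62 (0.67 ± 0.06). Atp5g2 had signals of 9582 and 14085 on array 1 and of 14488 and 10135 on array 2, so the arrays pointed in opposite directions, at 0.56 and -0.52 (0.02 ± 0.54). A second Atp5g2 probe gave 0.03 and 0.31 (0.17). Atp5g3 exceeded Atp5g2 on both arrays, by 0.94 and 1.33, and exceeded Atp5g1 by 0.77 on array 1 but by 0.20 on array 2. The Atp5g1 probe at chr11:95934924-95934983 and the second Atp5g2 probe at chr15:102495586-102495645, both on the minus strand, are printed because these genes resemble each other: they share a run of 14 bases, in capitals. Whether transcripts of one gene bound the probe of another was not tested.
Atp5g1: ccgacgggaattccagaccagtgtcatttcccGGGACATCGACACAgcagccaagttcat
Atp5g2: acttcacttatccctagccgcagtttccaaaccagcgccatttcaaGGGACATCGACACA

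The stalk that holds the head still is built of Atp5pb, Atp5h, Atp5j and Atp5o. Atp5pb, the b subunit, was at 0.99 and 0.64 (0.82 ± 0.18), and Atp5o, the subunit that confers sensitivity to oligomycin, at 0.57 and 0.64 (0.61 ± 0.03). Atp5j and Atp5h were at 0.38 ± 0.40 and 0.31 ± 0.35, each just below 0 on array 2. The small membrane subunits Atp5mpl, Atp5j2, Atp5md, Atp5k and Atp5l, which help the synthase dimerise or stay assembled, lay in the narrow range of 0.45 to 0.68 and were above 0 on both arrays for 5 of 5.

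The order of the complexes by median was II, III, V and IV. Across 10 settings of the processing, each array alone included, complex II was highest in 10 and complex IV lowest in 10. Complex III was above complex V in 9, and on array 2 alone they were at 0.46 and 0.47. The complexes had 4 to 17 measured genes each, and the ranges of their genes overlapped, from 0.73 to 1.66 in complex II and from -0.56 to 1.74 in complex IV. They also differed in brightness, with a median log2 signal of 11.97 for complex II, against 13.85, 13.35 and 13.88 for III, IV and V. Across the 46 members the correlation of signal and mean ratio was 0.18. The part of signal in the order of the complexes was not tested.

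**Figure D2:**
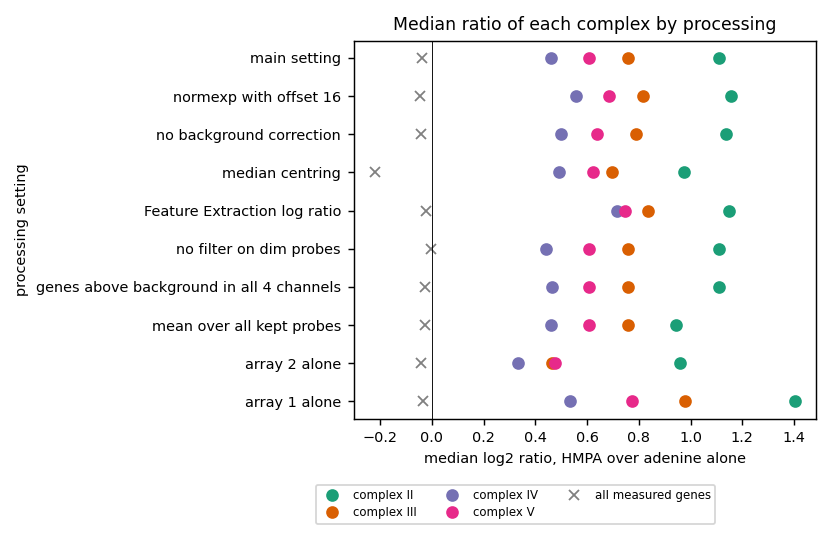
Median log2 ratio of HMPA over adenine alone for each complex (dots) and for all measured genes (crosses), by processing setting. Complex II is the highest dot and complex IV the lowest in each of the 10 settings, and the crosses lie near 0 except at -0.22 under median centring.

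The arrays lay further apart on these genes than on the array as a whole, and bright genes in general shared part of this. Each array lay a median of 0.19 from the mean over members and of 0.11 over all genes. At a log2 signal of 12 or more the distances were 0.20 for members and 0.16 for other genes, and at 14 or more 0.30 and 0.21. There were 8 members with opposite signs on the arrays: Atp5e, Atp5g2, Atp5h, Atp5j, Cox4i1, Cox6a2, Cox7a2l and Uqcrh. Another 6 (Atp5a1, Atp5j2, Atp5o, Cox7b, Cox8b and Sdha) agreed within 0.1. Array 1 gave the higher ratio for 33 of 46 members, or 71.7%, against 48.9% of all genes. As a description, the correlation of the arrays across the 46 members was 0.52, and 0.89 across all genes, which span a wider range of ratios. At a mean log2 signal of 14 or more, array 1 was higher for 14 of 19 members (73.7%) and for 132 of 168 other genes (78.6%), and below 14 for 19 of 27 members (70.4%). The share was thus similar in both ranges of signal, while the median of array 1 minus array 2 was 0.60 over the 19 brighter members and 0.15 over the 27 others. A dye effect of equal size cancels in the mean of the swapped arrays, and its part in single ratios was not tested.

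**Figure D3:**
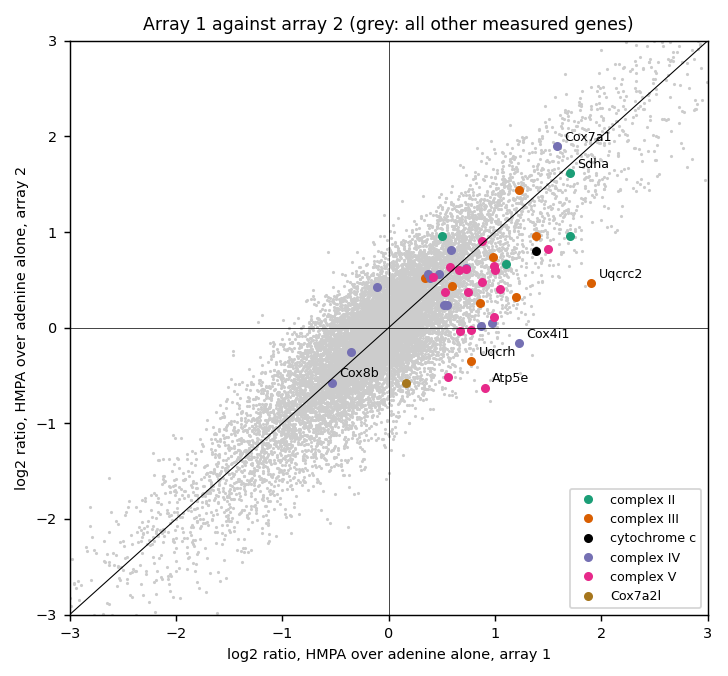
Log2 ratio of HMPA over adenine alone on array 1 (x axis) against array 2 (y axis), with members coloured by complex, 16652 other genes in grey and the line of equal ratios; 112 other genes with a value beyond 3 in size are not drawn. Most members lie below the line, 33 of 46, and Cox4i1, Uqcrh and Atp5e lie on opposite sides of 0 on the arrays.

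Most members gave bright signals, and bright genes in general were not higher. The median log2 signal of the members was 13.58, at the 98.3 percentile of the measured genes. Among genes with a log2 signal of 14 or more, the median ratio was 0.51 for 19 members and -0.56 for 168 others. At 13 or more the medians were 0.55 for 31 members and -0.19 for 498 others, and at 12 or more 0.56 for 37 members and -0.03 for 1138 others. The 9 members below 12 had a median of 0.48. The 2-fold rule gave another picture. At 12 or more it was met upward by 13.5% of members and 16.9% of other genes, so the members' share was not above that of others past this cut. The members past it were still the brighter, with a median log2 signal of 14.17 against 12.84. At 14 or more the medians of signal were close, 14.55 and 14.48, and the rule was met upward by 10.5% and 13.1%. The 1.5-fold rule was met upward by 48.6% and 27.5% at 12 or more. Downward, 0 of the 37 members past that cut and 165 of 1138 others met the 2-fold rule. The contrast with other genes past the same cut thus lay in the median and in the absence of lower members, not in the share of 2-fold higher ones.

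**Figure D4:**
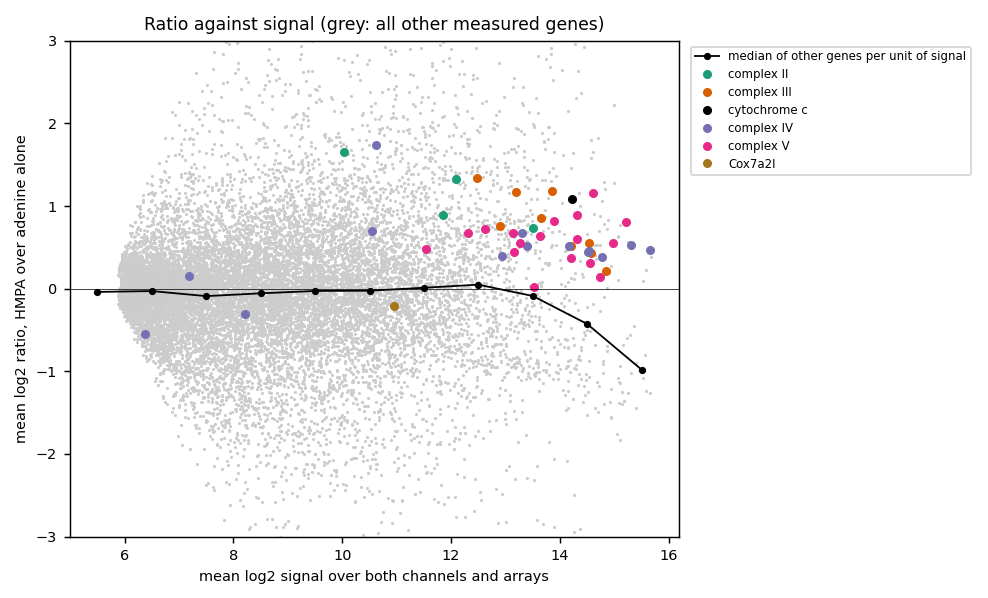
Mean log2 ratio of HMPA over adenine alone (y axis) against mean log2 signal (x axis), with members coloured by complex, other genes in grey (73 with a mean beyond 3 in size are not drawn) and the median of other genes per unit of signal as a black line, for bins of at least 20 genes. At a signal of 14 or more the members have a median of 0.51, while the black line falls below 0.

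Genes that build or feed the complexes mostly had ratios above 0 too. The list for complex I, which feeds electrons from NADH, had a median of 0.64 over 37 genes. Ndufa4, at 0.66, is counted in it, though its protein is now placed in complex IV. By the 2-fold rule 5 were higher and 0 lower. The share higher was 13.5%, against 6.64% of all measured genes. The list was bright, with a median log2 signal of 13.12, and 17.7% of non-members at 13 or more were higher. Ndufs1, the largest iron-sulfur subunit of complex I, was at 1.42 ± 0.37, and Ndufb5 at 1.24 ± 0.02. The citrate cycle was higher than either, with a median of 1.05 over 14 genes and 7 of 14 (50%) higher by the 2-fold rule. Idh3b, a subunit of isocitrate dehydrogenase, was at 1.47 ± 0.27 and Dld, the shared lipoamide dehydrogenase, at 1.46 ± 0.13, near the 1.66 of Sdha. Complex II, which belongs to that cycle, thus had a median close to that of the cycle.

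Coenzyme Q synthesis had a median of 0.67 over 10 measured genes of 13. By the 2-fold rule 3 were higher (30%) and 0 lower, against 6.64% and 7.72% of all measured genes. The 3 higher genes were Coq9, a lipid-binding protein of the pathway (1.44 ± 0.35), Pdss1, which makes the isoprenoid tail (1.43 ± 0.13), and Coq8a (1.35 ± 0.47). Assembly factors are needed to build the complexes but are no part of them. By the 2-fold rule 9.09% of those of complexes II and III were higher, and 5.26% of those of complex IV. These shares were near the 6.64% of all measured genes. Those of complexes II and III had a median of 0.40 over 11 genes with Uqcc1 at 1.10 ± 0.08 the 1 that met the 2-fold rule, and those of complex IV 0.43 over 19 measured of 21, with Taco1, a translational activator of a mitochondrially encoded subunit, at 1.05 ± 0.20. Cox16, another complex IV assembly factor, went the other way at -0.80 ± 0.10 and met the 1.5-fold rule downward. Of 5 genes for the assembly or inhibition of complex V, with a median of 0.79, Tmem70, an assembly factor, was at 1.17 ± 0.15 and the inhibitor Atpif1 at 0.10 ± 0.07. Outer membrane and import genes had a median of 0.29 over 17, and 0 met the 2-fold rule in either direction. The highest of them, Timm50, a receptor of the inner membrane import complex, was at 0.82 ± 0.16.

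Among 16 regulators of respiratory genes, with a median of 0.46, the 2-fold rule was met by Esrra and Tfb2m. That was 12.5%, against 6.64% of all measured genes. Esrra, a nuclear receptor of mitochondrial genes, was at 1.10 and 1.15 (1.12 ± 0.02). Tfb2m, a mitochondrial transcription factor, was at 1.03 ± 0.07. Tfam, which packages mitochondrial DNA, was at 0.93 ± 0.30 and the coactivator Ppargc1a at 0.62 ± 0.09. The gene for the transcription factor NRF1 was at -0.00 ± 0.01, Gabpa, an ETS factor, at 0.46 ± 0.04, and the coactivator Pprc1 at -0.75 ± 0.03. The NRF1 gene was the dimmest of the 16, at a mean log2 signal of 6.68. The background offset draws ratios of dim genes toward 0, so this value does not show that the gene was unchanged. Of the 16, 13 were above 0 on both arrays.

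**Figure D5:**
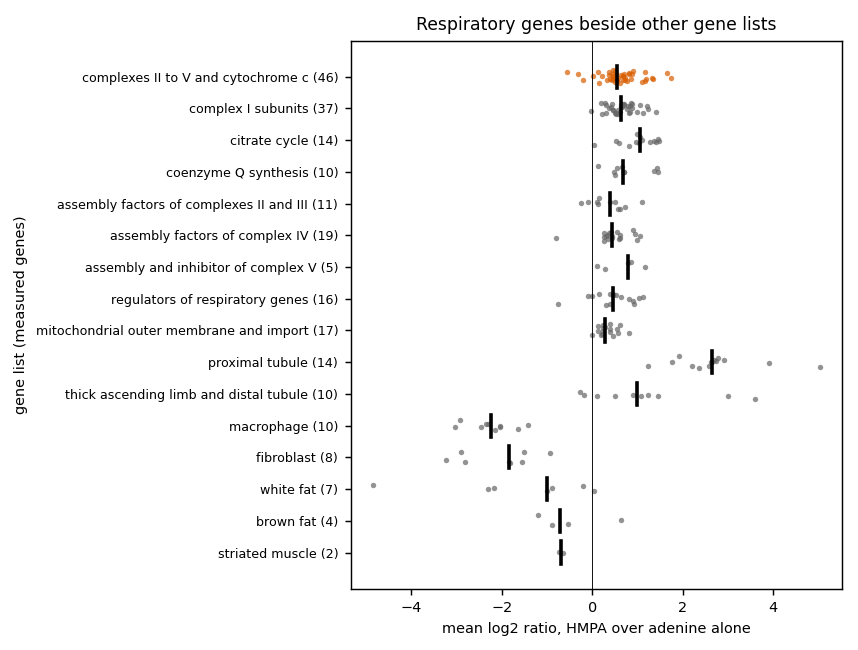
Mean log2 ratio of HMPA over adenine alone for each measured gene (points, spread vertically for legibility) of the members and of other gene lists, with the number of measured genes in brackets and the median as a bar. The respiratory genes sit at a median of 0.56, between proximal tubule markers at 2.63 and macrophage markers at -2.23.

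Cell type markers moved further than the respiratory genes. Proximal tubule markers were higher by the 2-fold rule in 14 of 14 measured genes of 15, with a median of 2.63, and their summed signal was 45457 and 59446 with adenine and 356639 and 368924 with HMPA. Thick ascending limb and distal tubule markers were higher in 5 of 10, with a median of 0.99 and sums of 73287 and 84268 against 109059 and 113167. Macrophage markers were lower in 10 of 10, with a median of -2.23 and sums of 114377 and 114395 against 18565 and 15747. Fibroblast markers were lower in 7 of 8, with a median of -1.83 and sums of 111941 and 100517 against 19192 and 15485. Over all measured genes, the 2-fold rule was met upward by 6.64% and downward by 7.72%. All measured genes of these 4 lists were above background in all 4 channels. Their part in the ratios of the respiratory genes was not tested.

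The promoters were searched for motifs of factors known to act on respiratory genes, since most members had ratios above 0. RefSeq promoter windows of build GRCm38.p6, 250 bases before to 50 after a start, were matched by symbol for 37 of 49 members, in 40 windows. The NRF1 core GCGCANGCG was found on either strand in 13 of 40 member windows (32.5%) and in 6.25% of all 32851 windows, or 8.58% of those of protein-coding genes. The ETS core CCGGAAG was found in 32.5% and 8.86% (11.6% of coding genes), and CCAAT in 55% and 37.4%. The other motifs were in few member windows. The YY1 core AAGATGGC was in 3 (7.5%, against 2.75% of all windows), and the CRE TGACGTCA in 2 (5% against 1.79%), those of Cycs and Uqcrfs1. The ERR motif TNAAGGTCA was in 2 (5% against 1.28%), those of Atp5g3 and Sdhd. A match is a run of letters and not a measured binding site. The median ratio was about the same with and without the NRF1 core. The 13 measured members with it had a median of 0.55 and the 23 without it 0.56. The 12 members without a window, Cyc1 and Uqcrc2 among them, are not in these medians. The part of NRF1 in the ratios was not tested.

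The printed promoters are examples, each as the 250 bases before the start on the minus strand of GRCm38.p6, with the named motif in capitals. Sdha (chr13:74350241-74350490, 61.6% G and C) holds 3 NRF1 cores and had the ratio of 1.66. Atp5g2 (chr15:102671048-102671297, 62.8%) holds 2 that overlap on opposite strands and had a mean of 0.02. That mean joins 0.56 on array 1 and -0.52 on array 2, so it describes neither array. Atp5g3 (chr2:73911327-73911576, 54.0%), whose ratio was 1.16, holds the ERR motif, read here on the other strand, and its NRF1 core lies outside the printed bases.
Sdha: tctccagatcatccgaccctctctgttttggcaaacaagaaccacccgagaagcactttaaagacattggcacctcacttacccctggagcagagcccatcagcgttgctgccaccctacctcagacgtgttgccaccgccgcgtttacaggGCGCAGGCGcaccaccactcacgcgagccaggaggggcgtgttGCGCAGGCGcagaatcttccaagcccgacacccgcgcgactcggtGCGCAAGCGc
Atp5g2: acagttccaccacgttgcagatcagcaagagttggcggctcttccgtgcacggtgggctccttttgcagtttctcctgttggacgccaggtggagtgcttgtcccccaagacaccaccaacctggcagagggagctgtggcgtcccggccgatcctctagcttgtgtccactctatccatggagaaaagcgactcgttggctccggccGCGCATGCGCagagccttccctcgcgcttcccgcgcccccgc
Atp5g3: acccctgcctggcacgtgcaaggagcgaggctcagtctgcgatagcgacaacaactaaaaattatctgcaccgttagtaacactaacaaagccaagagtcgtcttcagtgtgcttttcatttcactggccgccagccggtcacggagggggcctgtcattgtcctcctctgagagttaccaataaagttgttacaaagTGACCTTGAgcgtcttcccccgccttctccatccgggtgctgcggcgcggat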

How the data were processed

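The spot signals and local backgrounds that the authors deposited are intensity values, not normalized, per the file headers, from Feature Extraction 12.2.0.7 (the submitters' processing notes name 9.5). The deposited log10 ratio of red over green, background-subtracted and dye-normalized by that software, served as an alternative, and the value table repeats it.

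Ratios were computed with limma 3.58.1 in R 4.3.3 (normexp background with offset 50, loess within each array, control and unreliable spots at weight 0) and turned to log2 of HMPA over adenine alone. Python 3.11.15 with pandas 2.3.3 did the rest. Of 41174 probes, 25138 were kept, and a gene took its kept probe with the highest mean signal. Of the 67 member probes, 60 were named through RefSeq accessions and 7 by symbol. Depth here is signal over background, and the number of arrays limits the precision. The procedure was tested on simulated data. The members and the gene lists were chosen with earlier results of these data known. Named genes were members meeting the 2-fold rule, the 3 highest and lowest of each complex, isoforms and genes whose probes disagreed in sign, and the remaining members are given for completeness. A "fold" is the antilog of the mean log2 ratio.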

Additional observations from a re-analysis of the deposited data

How the results depend on the processing

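Each alternative changed 1 choice, except the Feature Extraction log ratio, which replaced background correction and normalization together. With the Feature Extraction log ratio, 12 members were higher and 1, Cox8b (-2.40), was lower by the 2-fold rule, 35 met the 1.5-fold rule upward, and the complex IV median was 0.71. The shares of all genes also grew, to 12.23% and 22.55%. The added genes were Atp5a1, Atp5b, Atp5pb, Uqcrc1 and Uqcrc2. Normexp with offset 16 also put 1 member lower, Cox8b at -1.002. Median centring moved the median of all genes to -0.22 and their split to 4.49% higher and 11.82% lower, and the 7 members stayed higher with Uqcrc2 added. With the mean over all kept probes, Sdha (0.999) no longer met the rule. Leaving out 1 array gave 3 members (Cox7a1, Cyc1 and Sdha, on array 2 alone) to 13 members (array 1 alone) higher, and a median over members of 0.50 to 0.78. No member list median changed sign in any alternative. The other counts and complex medians moved by less than 1.5 times or by less than the spread between arrays. For a single array the second limit decides little, since its distance from the mean is part of that spread. The complex III median, 0.76 on the mean, was 0.98 on array 1 alone and 0.46 on array 2 alone. No paired analysis was possible because the arrays were read as 1 RNA sample per condition, hybridised again as the same pair. On that reading, which the labels do not settle, these ranges cover hybridisation and processing, not animals.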
